A study of Mus musculus with 4 samples.

Results

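The 10 genes described here are used as markers of maturing astrocytes and were followed in glial progenitors with and without Quaking, an RNA-binding protein encoded by Qk. The 10 members, Aldh1l1, S100b, Gja1, Ndrg2, Acsbg1, Slc4a4, Sparcl1, Clu, Cd44 and Atp1b2, were taken by symbol from tables that list 35857 genes in each library. All 10 were listed and all 10 reached the mean of at least 1 TPM (a share of all transcripts, scaled to 1000000) required for testing. The cells were made from neural stem cells of the cerebral cortex of embryonic C57BL/6 mice and were collected 24 hr after glial differentiation had been induced. There were 2 libraries of wild-type cells, called control here, and 2 of Qk-/- cells, called Qk_KO. The sources used here do not say how the Qk allele was deleted, how old the embryos were or whether replicates of a group were separate cultures. The p-values therefore measure only the spread between these libraries, which may be partly technical.

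TPM values are corrected for transcript length, so levels can be compared between genes. The unit keeps no read depth, and the depth behind each value is unknown. Qk itself, the check of the labels, stood at 208 and 215 TPM in control and at 36.1 and 43.7 TPM in Qk_KO, that is at 18.9% of the control mean. Qk_KO replicate 1 stood apart from the other 3 libraries in sex-linked genes, with Eif2s3y at 35.4 TPM and Xist at 0.04 TPM, against 0 TPM and between 57.6 and 62.5 TPM. Markers of the labelled progenitors were abundant in every library, with Fabp7 between 2354 and 3144 TPM and Olig2 between 377 and 517 TPM. Of the 9 endothelial markers listed, 7 were too low to be tested, with Cdh5 and Cldn5 at or near 0 in all 4 libraries. The summed level of the 9 was low but not 0, between 5.86 and 8.01 TPM.

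Astrocytes form late in cortical development, after the stem cells have made neurons, and they take on their mature functions over a long time. The members stand for several of these functions: folate metabolism (Aldh1l1), calcium binding (S100b), gap junctions (Gja1), lipid activation (Acsbg1), transport of bicarbonate and sodium (Slc4a4, Atp1b2), secreted proteins (Sparcl1, Clu) and adhesion to hyaluronan (Cd44). Several are also expressed by other cells, S100b by the oligodendrocyte lineage and Cd44 by microglia and by glial precursors. In bulk RNA, fewer cells of a type and less RNA per cell cannot be told apart.

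The members did not all lie in one direction. Slc4a4 fell in Qk_KO, the only 1 of the 10 members to pass the test, while 3.24% of the 13260 genes tested passed, 1.83% higher and 1.42% lower. The groups did not overlap for 9 of the 10 members, with Qk_KO higher for 3 of them and lower for 6, but the same held for 61.1% of all genes tested, 33.6% higher and 27.5% lower. The median log2 fold change of the members was -0.38, beside 0.04 for all genes tested. Their summed level was 1717 and 1910 TPM in control and 1969 and 1809 TPM in Qk_KO, so the total overlapped between the groups. The test was limma's, two-sided, on log2(TPM + 1), its p-values were adjusted by Benjamini-Hochberg over every gene tested, the threshold was 0.05, and fold changes on this scale understate those of low genes. The 95% intervals given below come from the same fit and are not adjusted for the number of genes.

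**Figure D1:**
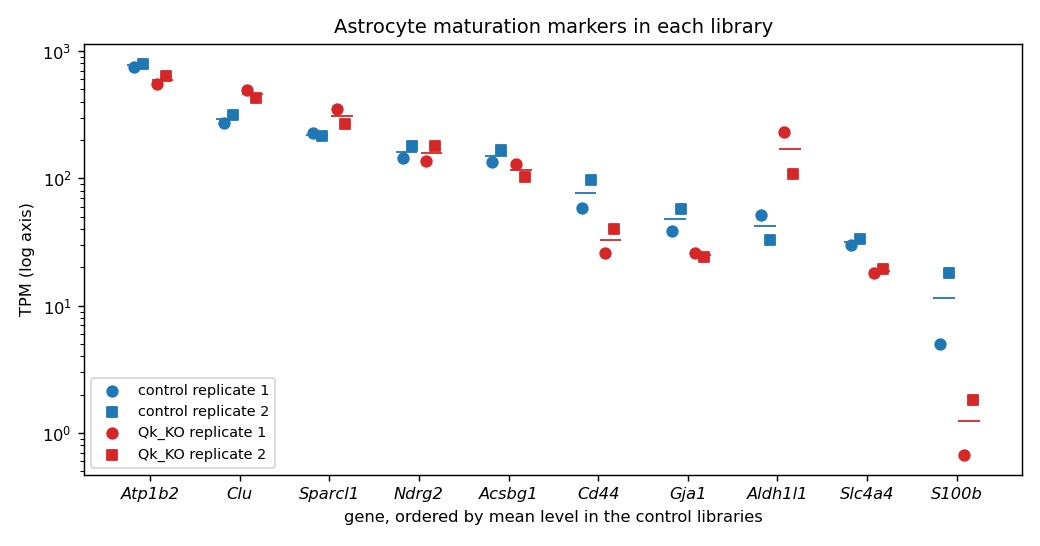
TPM (log axis) of each member in the 4 libraries, with controls in blue, Qk_KO in red, circles for replicate 1, squares for replicate 2 and short lines for group means. Aldh1l1 lies higher and S100b lower in both Qk_KO libraries, and Ndrg2 is the member whose groups overlap.

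Quaking is known to bind RNA at a short element built on the letters ACUAAC or ACUAAU, often in 3' UTRs, so the longest annotated 3' UTR of each member was searched for ACTAAC and ACTAAT on the sense strand. The 6 letters were found in 6 of the 10 members, against 36.2% of the 12276 tested genes with an annotated 3' UTR. They occurred 3 times in Slc4a4, 2 times in Gja1 and Ndrg2, and 1 time in S100b, Acsbg1 and Cd44. The 3 members with higher values in Qk_KO, Aldh1l1, Clu and Sparcl1, had no match, and neither had Atp1b2. The sites of Slc4a4, the member that fell, of Gja1 and Cd44, 2 of the members with lower values, and of Ndrg2, whose groups overlapped, are shown to let them be compared, with the motif letters in capitals and the position counted from the first base of the 3' UTR.
Slc4a4, base 2644: ctgagttcccacACTAACaagcagaactcc
Slc4a4, base 2997: tgtgcagaaactACTAATggttttgtatat
Slc4a4, base 4006: tttcaatatattACTAATaatgtttttcca
Gja1, base 1444: agtgcacatgtaACTAATttatttgaactg
Gja1, base 1588: ggacaatgagaaACTAATttgtttgacatt
Cd44, base 2663: atttattgattgACTAATaataatgaggaa
Ndrg2, base 49: acctcctgcaacACTAATttaagaggtgtt
Ndrg2, base 671: tcctttggccacACTAACttggatagctgt

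Long 3' UTRs hold a given set of 6 letters more often, so each member was set beside genes whose 3' UTR length was within 20% of its own. The 3' UTR of Slc4a4 is 4183 bases long, and 68.6% of the 1263 genes of like length held at least 1 match, 18.7% at least 3. Of genes like Gja1 (1720 bases), 11.4% held as many matches, and of genes like Ndrg2 (869 bases), 3.23%. A match was common at the length of Cd44 (2992 bases), where 57.6% of genes had 1, and less so at that of S100b (1091 bases), where 26.6% had 1. At the length of Acsbg1 (514 bases) it was 12.6%. For the members without a match, the share of like genes that held 1 was 40.5% for Aldh1l1 and 34.5% for Atp1b2. It was 12.9% for Sparcl1 (438 bases) and 11.4% for Clu (364 bases). Most genes of these 4 lengths thus had no match either. Ndrg2, with 2.30 matches per kb against 0.33 over all tested genes, was the member whose level overlapped between the groups. These matches are letters in an annotated sequence. Neither binding of Quaking nor the 3' ends in use were measured here.

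Slc4a4 encodes the electrogenic sodium bicarbonate cotransporter of astrocytes and maps to chr5:88886818-89239653 (plus strand, GRCm38). It was at 29.99 and 33.4 TPM in the controls and at 18.2 and 19.6 TPM in Qk_KO. Both Qk_KO libraries were low and differed from each other by less than did the controls. It fell from 31.7 ± 2.38 to 18.9 ± 0.955 TPM (SD, n = 2 per group), a log2 fold change of -0.72 (SE 0.12), with an adjusted p of 0.047 in limma. The call lay close to the threshold and ended without any 1 library (adjusted p between 0.0846 and 0.288), with no filter on low genes (0.139) and without limma's trend (0.0785), while the log2 fold change stayed between -0.79 and -0.64.

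Among the other bicarbonate transporters and carbonic anhydrases, 1 of 13 tested genes rose, 0 fell and 12 were not called, with a median log2 fold change of -0.16. Over all the families described beside the members, 5 of 102 tested genes rose and 3 fell, beside 1.83% and 1.42% of all genes tested. Both counts were smaller with any 1 library left out. The bicarbonate transporter that rose was Slc4a3, an exchanger of chloride for bicarbonate, which went from 28.3 ± 4.36 to 54.6 ± 2.68 TPM (SD, n = 2; log2 fold change 0.93, adjusted p = 0.0426 in limma). In each library the ratio of Slc4a4 to Slc4a3 was 0.957 and 1.33 in control and 0.322 and 0.371 in Qk_KO. Slc4a7, another sodium bicarbonate cotransporter, stood at 25.99 ± 3.05 and 19.1 ± 1.11 TPM and did not pass (adjusted p = 0.115 in limma). Profiles of centred log2(TPM + 1) over the 4 libraries were compared by distance, with predicted loci (Gm, LOC and Rik symbols) left out. Sowahc, Fermt3 and Tmem144 were then the genes most like Slc4a4, at distances of 0.04, 0.04 and 0.05. None of these 3 passed the test.

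Atp1b2 encodes the beta subunit of the sodium-potassium ATPase found mainly in glia, where it also serves as an adhesion molecule. It was the most abundant member in every library. It stood at 753 and 798 TPM in the controls and at 554 and 639 TPM in Qk_KO, with both Qk_KO values lower. On the log2 scale the difference was -0.38 (SE 0.11, 95% interval -0.65 to -0.11) and it did not pass (adjusted p = 0.0962 in limma). The gene maps to chr11:69599736-69605942 (minus strand).

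Atp1b1, the widely expressed beta subunit, lay the other way without passing, at 94.7 and 106 TPM in the controls and at 122 and 157 TPM in Qk_KO (log2 fold change 0.47, SE 0.15, adjusted p = 0.116 in limma). Atp1b2 exceeded Atp1b1 by 7.95 and 7.52 times in the control libraries and by 4.53 and 4.06 times in the Qk_KO libraries. The ratio was lower in both Qk_KO libraries than in either control.

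Gja1 encodes connexin 43, the main gap junction protein of astrocytes and radial glia, and maps to chr10:56377330-56402513 (plus strand). It was at 38.9 and 57.8 TPM in the controls and at 25.8 and 24.3 TPM in Qk_KO. The Qk_KO values were close together and below both controls, which differed by 1.49 times. The log2 fold change was -0.90 (SE 0.20, 95% interval -1.39 to -0.40, adjusted p = 0.0651 in limma), so it did not pass. Of 6 other connexin, pannexin and scaffold genes tested, 0 passed, with Tjp1, the scaffold of gap and tight junctions, at 48.1 ± 1.32 and 43.7 ± 2.397 TPM. Panx1, a large-pore channel, was at 32.0 ± 9.06 and 43.3 ± 1.78 TPM.

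Most connexin genes were not tested because their levels were too low, among them Gjb6, which encodes connexin 30 of mature astrocytes, at no more than 0.16 TPM in any library. Gjc1, the gene of connexin 45, was the next most abundant connexin in control, at 17.6 and 13.7 TPM, and was at 32.9 and 21.8 TPM in Qk_KO. Gja1 exceeded Gjc1 by 2.21 and 4.23 times in the controls, and the ratio was 0.783 and 1.12 in Qk_KO. Gjc1 by itself did not pass (adjusted p = 0.11 in limma).

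**Figure D2:**
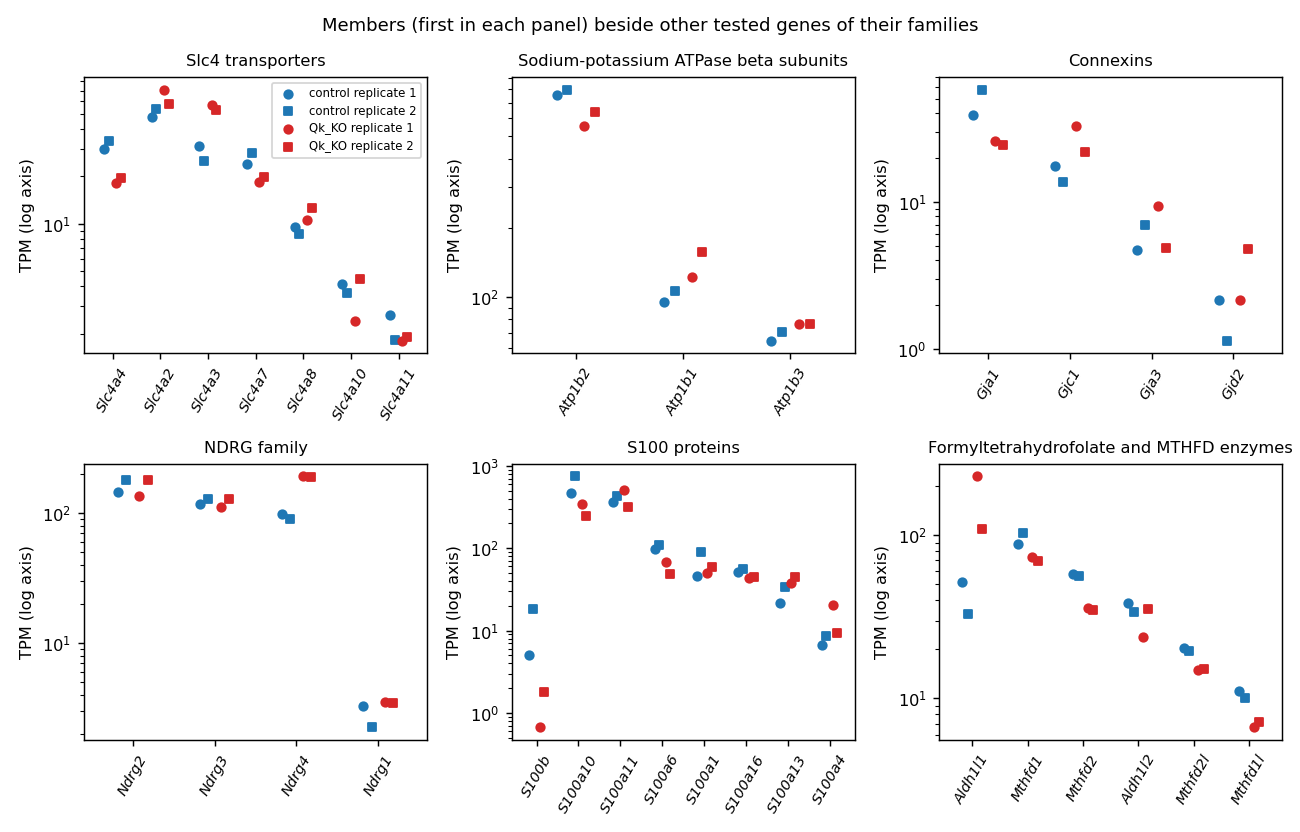
TPM (log axis) in each library for 6 members, first in each panel, beside some other tested genes of their families. Shown are Slc4 transporters, ATPase beta subunits, connexins, NDRG genes, S100 genes, and Aldh1l2 with the Mthfd genes. Controls are in blue and Qk_KO in red, with circles for replicate 1 and squares for replicate 2. Slc4a4 lies lower and Slc4a3 higher in Qk_KO, Atp1b2 lies lower and Atp1b1 higher, and Ndrg4 lies higher while Ndrg2 and Ndrg3 overlap.

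Aldh1l1 encodes the cytosolic enzyme that releases carbon dioxide from formyltetrahydrofolate and is a widely used marker of the astrocyte lineage. It maps to chr6:90486427-90600203 (plus strand). Its level was 52.0 and 32.9 TPM in the controls and 229 and 108 TPM in Qk_KO replicates 1 and 2. Both Qk_KO libraries were higher than both controls, but they differed from each other by 2.12 times. The log2 fold change of 1.91 (SE 0.39, 95% interval 0.94 to 2.87) was matched or exceeded in size by 0.709% of the genes tested and did not pass (adjusted p = 0.0569 in limma).

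When Qk_KO replicate 1, the library that stood apart in sex-linked genes, was left out, Aldh1l1 had a log2 fold change of 1.37 and an adjusted p of 0.0952 in limma. When Qk_KO replicate 2 was left out instead, these were 2.44 and 0.0488, and Aldh1l1 passed. It passed under 3 of the 15 alternatives, among them, at an adjusted p of 0.0441 (limma), the fit with small RNA genes left out, a setting chosen after seeing the data. In mean level Aldh1l1 was the eighth of the 10 members in control and the fourth in Qk_KO. An antisense gene, Gm15756, shares 499 of the 4516 exonic bases of Aldh1l1, and the lincRNA gene Gm45901, on the same strand, shares 105. The strand setting of the counting is not given, so reads of the first part cannot be told apart, and for the second strand would not separate them.

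The other folate genes were mixed. Among 21 of them tested, 1 rose, 1 fell and 19 were not called, and the median log2 fold change was -0.17. Beside them, 1.83% of all genes tested rose and 1.42% fell. Mthfd2, a mitochondrial enzyme of folate metabolism, fell from 57.0 ± 1.65 to 35.3 ± 0.545 TPM (SD, n = 2; log2 fold change -0.67, adjusted p = 0.0426 in limma). Folr1, a folate receptor also made by the choroid plexus, rose from 0.33 and 0.44 TPM in the controls to 5.65 and 3.93 TPM in Qk_KO (log2 fold change 2.05, adjusted p = 0.0326 in limma). Aldh1l2, the mitochondrial counterpart of Aldh1l1, was at 36.0 ± 3.36 and 29.5 ± 8.24 TPM with overlapping groups.

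S100b encodes a calcium-binding protein of astrocytes that is also made in the oligodendrocyte lineage, and maps to chr10:76253853-76261159 (plus strand). It was the least abundant member in every library, at 5.04 and 18.2 TPM in the controls and at 0.67 and 1.81 TPM in Qk_KO. Both Qk_KO values were lower, and the controls differed by 3.60 times. The mean was 11.6 ± 9.28 in control and 1.24 ± 0.806 TPM in Qk_KO (SD, n = 2), or 10.7% of control. The log2 fold change of -2.31 (SE 0.57, 95% interval -3.74 to -0.88) was matched or exceeded in size by 0.385% of the genes tested but did not pass (adjusted p = 0.0761 in limma). It was -1.48 without control replicate 2 and -3.14 without control replicate 1.

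Some genes of the oligodendrocyte lineage had the same order of libraries as S100b. This order was not particular to them, since the members Cd44, Slc4a4 and Atp1b2 had it too. Its share among all genes was not counted. Sox10, the transcription factor of that lineage, was at 17.2 and 40.8 TPM in the controls and at 2.38 and 7.55 TPM in Qk_KO, and Bcas1, a gene of newly formed oligodendrocytes, was at 5.96 and 16.04 and at 0.56 and 2.12 TPM. Of the oligodendrocyte lineage markers 0 of 10 tested rose, 1 fell and 9 did not pass, with a median log2 fold change of -1.22. Among all genes tested, 1.83% rose and 1.42% fell. For 7 of the 10 the Qk_KO libraries were lower without overlap and for 0 higher (27.5% and 33.6% of all genes tested). The gene that fell was Pdgfra, the receptor of oligodendrocyte precursors, at 44.5 ± 12.2 and 8.75 ± 4.77 TPM (SD, n = 2; adjusted p = 0.0461 in limma), and the defining myelin genes Mobp and Mog were at or near 0. The summed level of the 15 markers was between 1071 and 1252 TPM in control and between 964 and 1170 TPM in Qk_KO, with overlapping groups, most of it from Olig1 and Olig2. The part of these genes' source cells in the S100b values was not tested.

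No other S100 gene passed, with 0 of 8 tested. S100a10, a partner of annexin, was at 473 and 750 TPM in the controls and at 341 and 248 TPM in Qk_KO (adjusted p = 0.076 in limma). S100a11 was at 361 and 433 and at 508 and 313 TPM, with overlapping groups. The ratio of Aldh1l1 to S100b, both used to mark astrocytes, was 10.3 and 1.81 in the control libraries and 342 and 59.8 in the Qk_KO libraries.

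Cd44, the hyaluronan receptor, maps to chr2:102811141-102901665 (minus strand). It was at 58.5 and 96.4 TPM in the controls and at 25.8 and 40.3 TPM in Qk_KO. Both Qk_KO libraries were lower, at 42.7% of the control mean, with a gap between replicates of 1.65 times in control and 1.56 times in Qk_KO. As a log2 fold change this was -1.19 (SE 0.30, 95% interval -1.94 to -0.45), and it did not pass (adjusted p = 0.0774 in limma). With 1 library left out it was between -1.55 (without control replicate 1) and -0.84 (without control replicate 2).

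Among genes of hyaluronan synthesis, its receptors and the proteins that link Cd44 to actin, 0 of 10 tested rose, 1 fell and 9 did not pass. Of all genes tested, 1.83% rose and 1.42% fell. Msn, which encodes the linker moesin, fell from 327 ± 16.4 to 163 ± 2.01 TPM (SD, n = 2; log2 fold change -0.999, SE 0.09, adjusted p = 0.022 in limma). The related linkers did not pass: Rdx was at 165 ± 14.3 and 128 ± 14.8 TPM and Ezr at 116 ± 8.59 and 139 ± 18.5 TPM. Has2, a hyaluronan synthase, did not exceed 1.42 TPM in any library.

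Microglial markers were also lower in Qk_KO. Of 10 tested, 0 passed, but for all 10 the Qk_KO libraries were lower without overlap (27.5% of all tested genes), with a median log2 fold change of -0.94. The summed level of the 15 markers listed was 85.0 and 76.0 TPM in control and 43.3 and 36.8 TPM in Qk_KO, with the homeostatic marker P2ry12 at or near 0 in every library. Tyrobp, a signalling adaptor of these cells, was at 10.9 ± 1.42 and 4.37 ± 1.41 TPM. Within each group the summed markers were higher in replicate 1, while Cd44 was higher in replicate 2. The part of microglia in the Cd44 values was not tested.

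**Figure D3:**
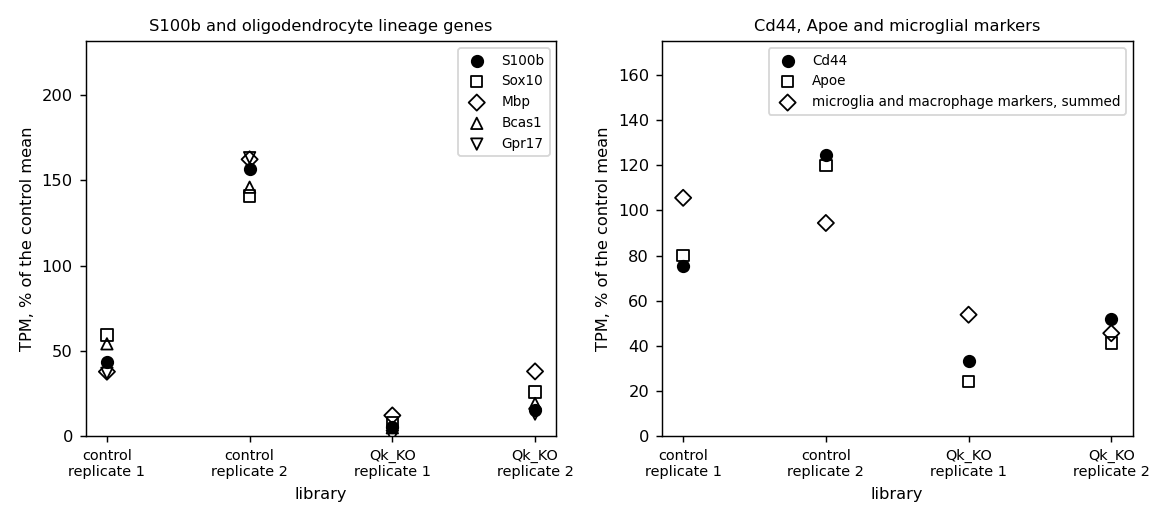
TPM as a percentage of the control mean (linear axis from 0) in each library, for S100b beside 4 oligodendrocyte lineage genes on the left and for Cd44 beside Apoe and the summed microglial markers on the right. S100b is highest in control replicate 2 and lowest in Qk_KO replicate 1, as are Sox10, Mbp, Bcas1 and Gpr17. The groups overlap for Mbp, at 37.9% in control replicate 1 and 38.0% in Qk_KO replicate 2. Cd44, Apoe and the microglial sum are lower in both Qk_KO libraries than in either control. Cd44 and Apoe are also highest in control replicate 2 and lowest in Qk_KO replicate 1. The microglial sum has the opposite order within each group, with replicate 1 above replicate 2.

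Clu encodes clusterin, a secreted chaperone and apolipoprotein, and maps to chr14:65968483-65981547 (plus strand). It was at 273 and 314 TPM in the controls and at 497 and 430 TPM in Qk_KO. Both Qk_KO libraries were higher, and the groups were far apart relative to their replicates. The mean was 293 ± 29.6 in control and 463 ± 47.2 TPM in Qk_KO (SD, n = 2), a log2 fold change of 0.66 (SE 0.12, 95% interval 0.36 to 0.96). It missed the threshold narrowly (adjusted p = 0.0515 in limma) and passed under 4 of the 15 alternatives, among them a pseudocount of 0.1 TPM (0.0484), a mean of at least 5 TPM (0.0459) and the fit with small RNA genes left out (0.041).

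Of other apolipoproteins, lipid exporters and clusterin receptors, 0 of 10 tested passed. Apoe, the main apolipoprotein of the brain, lay opposite to Clu, at 1084 and 1620 TPM in the controls and 327 and 559 TPM in Qk_KO (log2 fold change -1.63, SE 0.30, adjusted p = 0.0519 in limma). The ratio of Clu to Apoe was 0.251 and 0.194 in control and 1.52 and 0.77 in Qk_KO. Apoe is also abundant in microglia, whose markers were lower in the same libraries. Within each group, however, Apoe was higher in replicate 2 and the summed microglial markers in replicate 1. The part of microglia in the Apoe values was not tested.

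Sparcl1 encodes hevin, a secreted matrix protein by which astrocytes promote synapse formation, and maps to chr5:104079111-104113733 (minus strand). It was at 226 and 216 TPM in the controls and at 352 and 265 TPM in Qk_KO. Both Qk_KO libraries were higher, replicate 1 more so. On the log2 scale the difference was 0.47 (SE 0.15, 95% interval 0.09 to 0.84), and it did not pass (adjusted p = 0.119 in limma). Without Qk_KO replicate 1 it was 0.26.

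Sparc, the homologue that antagonises hevin, was at 384 and 377 TPM in the controls and at 622 and 417 TPM in Qk_KO and did not pass (adjusted p = 0.218 in limma). The ratio of Sparc to Sparcl1 was 1.70 and 1.75 in control and 1.77 and 1.57 in Qk_KO, with overlapping groups. While 1.83% of all genes tested rose and 1.42% fell, the numbers in this family were small. Of the SPARC family and other astrocyte synaptogenic proteins, 1 of 11 tested rose, 0 fell and 10 did not pass. The gene that rose, Spock1, encodes a proteoglycan of that family and went from 1.31 ± 0.396 to 5.07 ± 0.976 TPM (SD, n = 2; adjusted p = 0.047 in limma).

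Ndrg2, a gene of the NDRG family that is strong in astrocytes, was at 145 and 178 TPM in the controls and at 136 and 178 TPM in Qk_KO. It maps to chr14:51905271-51914158 (minus strand). It was the only member whose groups overlapped. The log2 fold change was -0.05 (SE 0.17), with a 95% interval of -0.46 to 0.37 (adjusted p = 0.881 in limma). With 1 library left out it was between -0.24 and 0.15.

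Its relative Ndrg4, known from neurons, rose in Qk_KO, from 98.5 and 90.3 TPM to 192 and 190 TPM (log2 fold change 1.01, SE 0.09, adjusted p = 0.0225 in limma). Of the 3 other NDRG genes tested it was the only 1 to pass, beside 3.24% of all genes tested. Ndrg3 was at 122 ± 7.42 and 120 ± 11.6 TPM with overlapping groups. Neuronal genes Ina and Snap25 rose in the same libraries, 2 of the 13 neuron markers tested, with 0 lower and 11 not passing. The shares of all genes tested that passed were 1.83% higher and 1.42% lower. For 5 of the 13 the Qk_KO libraries were higher without overlap and for 0 lower, beside 33.6% and 27.5% of all genes tested. For the other 8 the groups overlapped. The summed level of the neuron markers was 646 and 423 TPM in control and 926 and 911 TPM in Qk_KO, and its part in the Ndrg4 values was not tested.

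Acsbg1 encodes an acyl-CoA synthetase that activates long fatty acids, and maps to chr9:54604877-54661870 (minus strand). It was at 135 and 166 TPM in the controls and at 130 and 103 TPM in Qk_KO. The groups were apart, but the nearest pair of values differed by less than the replicates did. As a log2 fold change this was -0.37 (SE 0.16, 95% interval -0.77 to 0.02), and it did not pass (adjusted p = 0.192 in limma). It was -0.21 without Qk_KO replicate 2 and -0.54 without Qk_KO replicate 1.

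Among the other acyl-CoA synthetases, fatty acid transporters and brain fatty acid binding proteins, 1 of 11 tested rose, 0 fell and 10 did not pass. All genes tested had 1.83% higher and 1.42% lower. Fabp5, a fatty acid binding protein, rose from 624 ± 0.0612 to 886 ± 9.99 TPM (SD, n = 2; log2 fold change 0.50, adjusted p = 0.048 in limma). Acsl6, the synthetase typical of brain, was at 36.5 ± 2.61 and 42.4 ± 2.90 TPM. The paralogue Acsbg2 was at or near 0 in every library.

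**Figure D4:**
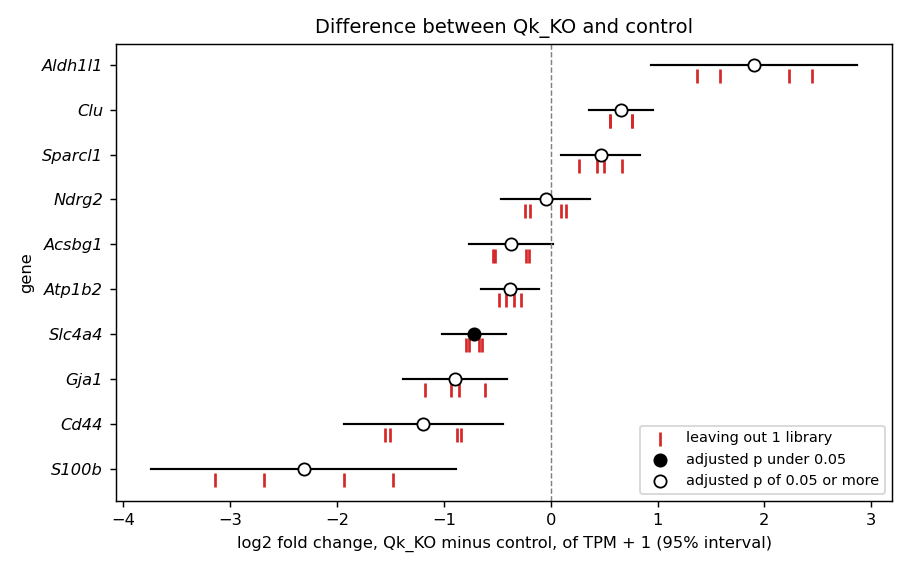
Log2 fold change of TPM + 1 (Qk_KO minus control) of each member with its 95% interval, filled where the adjusted p was under 0.05, with red ticks for the 4 values that result from leaving out 1 library. Slc4a4 is the filled point at -0.72, and the ticks of Ndrg2 fall on both sides of 0.

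In the control libraries the order of the members by mean level was Atp1b2, Clu, Sparcl1, Ndrg2, Acsbg1, Cd44, Gja1, Aldh1l1, Slc4a4 and S100b. Neighbours in this order overlapped for Ndrg2 with Acsbg1, Gja1 with Aldh1l1 and Aldh1l1 with Slc4a4. In the Qk_KO libraries the order was Atp1b2, Clu, Sparcl1, Aldh1l1, Ndrg2, Acsbg1, Cd44, Gja1, Slc4a4 and S100b, and the only neighbours that overlapped were Aldh1l1 and Ndrg2. With Aldh1l1 set aside, the order was the same in both groups.

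Other genes of astrocytes were also mixed. Of 40 listed, 36 were tested, of which 3 rose, 1 fell and 32 did not pass, with a median log2 fold change of 0.02. Over all genes tested, 1.83% rose and 1.42% fell. Aqp4, the water channel of astrocyte endfeet, rose with a log2 fold change of 2.63, and the protease gene Htra1 rose from 37.9 ± 7.69 to 97.9 ± 16.8 TPM (SD, n = 2; adjusted p = 0.0419 in limma). Mt1, a metallothionein, rose from 603 ± 5.75 to 905 ± 47.2 TPM (adjusted p = 0.0429 in limma). Slc1a3, a glutamate transporter, fell with a log2 fold change of -1.53.

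The groups did not overlap for 18 of these 36 genes, 9 higher and 9 lower, beside 61.1% of all genes tested, 33.6% higher and 27.5% lower. Kcnj10, the potassium channel that works beside Slc4a4 and Aqp4 in astrocyte ion and water balance, was at 79.4 and 71.1 TPM in the controls and 48.7 and 53.3 TPM in Qk_KO. Both Qk_KO values were lower, but it did not pass (adjusted p = 0.0553 in limma). Gfap, the classical astrocyte filament, was at 45.1 and 45.4 and at 44.0 and 72.2 TPM with overlapping groups.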

How the data were processed

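Libraries of poly(A)-selected RNA were read on an Ion Proton, per the labels' protocols. For each library the authors deposited 1 table of TPM by gene, whose sum is 1000000 within rounding. The submitters' processing notes name STAR 2.4.1d, RSEM 1.3.0, mm10 and GRCm38.p4. The annotation and strand setting behind these tables is not given in the sources used here. Since TPM holds no depth, precision means the spread between libraries. Genes that averaged 1 TPM or more were fitted as log2(TPM + 1) with limma 3.58.1 (lmFit, eBayes with trend, median of 5.57 degrees of freedom) in R 4.3.3, all 4 libraries in 1 fit, with Benjamini-Hochberg adjustment over the 13260 genes. An exact permutation test of 2 against 2 libraries cannot pass 0.05. When a library was left out, the filter was applied to the remaining 3. Without a filter, genes at 0 in all libraries were left out.

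The members, the 18 other gene lists and the tests were chosen with earlier results of these data known. The rule for named genes took all members, Qk and up to 4 called genes of each list (or the 2 most abundant where none was called). It also took the 3 genes nearest in profile to a called member, with predicted loci left out. Other genes named were chosen after their values were seen. Results of lists not described in the report are in the closing section, except that some genes, some site sequences and the counts of the ATPase list are not reported here. Gene positions, transcripts and 3' UTRs came from GENCODE M21 on GRCm38. Alternatives tried were a pseudocount of 0.1 or 0.5 TPM, a filter at 5 TPM or none, scaling by median ratio or quantiles, eBayes without trend or robust, a replicate block, and each library left out in turn. A fit without small RNA genes and a fit with the GC trend of each library removed were chosen after seeing the data. Plots used matplotlib 3.10.9 under Python 3.11.15.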

Additional observations from a re-analysis of the deposited data

How the results depend on the processing

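Having 2 libraries a group and an unknown depth limits every value. The sign of the log2 fold change was kept by 9 of the 10 members under all 15 alternatives, but since their groups did not overlap, only settings that rescale the values could have turned it. For Ndrg2 the values ranged from -0.24 to 0.15 when 1 library was left out. Slc4a4 was called under 9 of 15 alternatives, Clu under 4, Aldh1l1 under 3, and S100b, Gja1 and Cd44 under 1. Counts of calls are given as higher, then lower, in Qk_KO, and the main ones were 242 and 188 for all genes, 0 and 1 for members, 3 and 1 for other astrocyte genes and 5 and 3 for genes of the members' families.

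With no filter on low genes, 0 and 0 genes passed in limma, so 0 members, 0 other astrocyte genes and 0 family genes, while 2329 and 1998 genes had an unadjusted p under 0.05. Without limma's trend the counts were 23 and 18 for all genes, 0 lower for members, 1 and 0 for other astrocyte genes and 1 and 0 for family genes. At a mean of at least 5 TPM, 304 genes were lower, 1 member was higher, 3 other astrocyte genes were lower and family genes were 3 and 5. A pseudocount of 0.1 TPM gave 1 member higher, 2 other astrocyte genes lower and 5 family genes lower. Removing the GC trend, added after seeing the data, gave 1 and 2 other astrocyte genes and 3 higher family genes. Leaving out small RNA genes, also added, gave 457 and 342 for all genes, 2 members higher, 5 and 4 other astrocyte genes and 6 family genes lower.

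The replicate numbers are shared by the groups in the labels, but nothing says that they mark a shared animal or day, and the deviations of same-numbered libraries from their group means correlated at 0.11. With the replicate number as a block, 753 and 525 genes passed, with 2 and 4 members (Aldh1l1 and Clu higher, Cd44, Gja1, S100b and Slc4a4 lower), 5 and 2 other astrocyte genes and 8 and 8 family genes.

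When each library was left out in turn, between 0 and 88 genes were higher and between 4 and 60 lower. Members called ranged from 0 to 1 higher (Aldh1l1, without Qk_KO replicate 2) and were 0 lower each time. Other astrocyte genes ranged from 0 to 1 in each direction, and family genes from 0 to 1 higher and from 0 to 2 lower. In all, 60 genes passed without Qk_KO replicate 1, 148 without Qk_KO replicate 2, 10 without control replicate 1 and 4 without control replicate 2. A lone library was then assumed to vary like the other group.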

Other observations

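Genes of reactive astrocytes were also measured. Of 33 listed, 26 were tested, of which 1 rose, 1 fell and 24 did not pass, with a median log2 fold change of -0.51. Among all genes tested, 1.83% rose and 1.42% fell. Clcf1, a cytokine of the IL-6 family, fell from 47.4 ± 0.218 to 16.1 ± 0.375 TPM (SD, n = 2; log2 fold change -1.50, SE 0.10, adjusted p = 0.0144 in limma). Ggta1, a galactosyltransferase, rose from 7.22 ± 1.38 to 15.98 ± 2.04 TPM (adjusted p = 0.0483 in limma). The groups did not overlap for 20 of the 26 genes, with Qk_KO lower for 14 and higher for 6, beside 61.1% of all genes tested, 27.5% lower and 33.6% higher. Lcn2, a gene strongly induced in reactive astrocytes, did not exceed 0.23 TPM in any library.

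Many markers of vascular and ventricular cells were too low to be tested. This held for 7 of 9 endothelial, 5 of 10 pericyte, fibroblast and meningeal, and 7 of 9 ependymal and choroid plexus markers. Of the endothelial markers 0 of 2 tested passed, with Kdr at 2.88 ± 0.403 and 4.04 ± 0.0991 TPM and Flt1 at 2.33 ± 0.311 and 2.03 ± 0.622 TPM. Of the pericyte, fibroblast and meningeal markers 0 of 5 tested passed, with Pdgfrl at 24.4 ± 2.71 and 60.9 ± 22.1 TPM (adjusted p = 0.0573 in limma). Of the ependymal and choroid plexus markers 1 of 2 tested rose, Folr1, and Foxj1 was at 17.8 ± 1.92 and 17.0 ± 2.54 TPM, while Ttr did not exceed 0.69 TPM in any library.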
